A study of Mus musculus and Rattus norvegicus with 35 samples.

Results

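The apolipoproteins described here are 8 genes, Apoa1, Apoa2, Apoa4, Apob, Apoc1, Apoc3, Apoe and Apoh, chosen by symbol from the deposited gene tables. All 8 are among the 24601 mouse genes and all 8 among the 22409 rat genes. None is the host of a circular RNA (circRNA, an RNA closed by back-splicing): 0 of 28482 mouse and 0 of 18075 rat circRNAs have one of these symbols as host. The study measured total RNA of C57BL/6 mouse tissues and of Sprague Dawley rat hippocampus and cultured neurons, with no genetic change named in the labels. Liver, brain, heart, lung and testis had 3 rRNA-depleted libraries each, 1 from 14-week and 2 from 20-week mice. Mouse hippocampus had 2 libraries at each of E18, P1, P10 and P30. Single libraries came from 4-week mouse hippocampal synaptosomes and homogenate, and from microdissected neuropil and somata of CA1 at 4 weeks, in mouse and in rat. Rat hippocampal cultures at DIV 28 (days in vitro) had 2 libraries after 40 µM bicuculline for 12 h, a blocker of inhibitory GABA-A receptors, and 2 control libraries. A poly(A)-selected library of 14-week brain stood beside the rRNA-depleted one.

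Apolipoproteins are the protein coat of lipoproteins, the particles that carry cholesterol and triglycerides in blood and tissue fluid. Liver and intestine secrete most of those in plasma, where Apob builds very low density lipoproteins and chylomicrons and Apoa1 builds high density lipoproteins. Apoe is a ligand of the receptors that clear these particles, and in brain it is made mainly by astrocytes and carries cholesterol between cells. Apoa1, Apoc3 and Apoa4 are neighbours on mouse chromosome 9, and Apoc1 and Apoe are neighbours on chromosome 7. Apoa2 lies on chromosome 1, Apob on 12 and Apoh on 11.

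Promoter sequences were available for 6 of the 8 genes, as 9 RefSeq starts. The 250 bases before a start are shown for Apoa1 and Apob, which are made almost only in liver here, and for Apoe, which is also high in brain (RefSeq, GRCm38.p6, read 5′ to 3′ on the gene's strand). Capitals mark the letters TATAAA.
Apoa1 (chr9:46228380-46228629, plus strand): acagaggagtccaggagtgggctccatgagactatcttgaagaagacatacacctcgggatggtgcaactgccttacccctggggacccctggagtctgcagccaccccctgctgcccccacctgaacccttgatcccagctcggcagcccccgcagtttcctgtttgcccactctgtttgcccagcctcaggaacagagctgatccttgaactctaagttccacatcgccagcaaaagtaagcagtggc
Apob (chr12:7977427-7977676, plus strand): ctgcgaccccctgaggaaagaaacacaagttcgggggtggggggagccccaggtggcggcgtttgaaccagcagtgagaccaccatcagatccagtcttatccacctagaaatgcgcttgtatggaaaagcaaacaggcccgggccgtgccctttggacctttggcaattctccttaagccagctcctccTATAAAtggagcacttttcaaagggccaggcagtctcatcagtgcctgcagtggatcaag
Apoe (chr7:19699189-19699438, minus strand): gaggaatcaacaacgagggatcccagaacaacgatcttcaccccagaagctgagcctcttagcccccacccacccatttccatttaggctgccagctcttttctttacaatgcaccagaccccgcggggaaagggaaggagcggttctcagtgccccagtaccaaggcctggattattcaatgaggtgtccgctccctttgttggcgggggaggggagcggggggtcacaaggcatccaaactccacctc
The letters TATAAA, searched on both strands, stood 60 bases before the Apob start and were in 3 of the 9 windows, against 12.4% of 32851 RefSeq windows of the same length. GTTAAT, the core of a hepatocyte nuclear factor 1 site, was in 1 of the 9, an alternative Apoe start, against 6.43% of all windows. CAAAGTCCA, a site of the type bound by Hnf4a, was in 0 of the 9, against 0.384% of all windows. No other motif was searched. The Apoa1 and Apoe windows printed held none of the 3, so that the capitals are in Apob alone. The other TATAAA windows were 1 of the 2 Apoa2 starts and 1 of the 2 further Apoe starts, where the letters stood 96 bases before the start.

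The files give normalised levels in TPM (transcripts scaled to a fixed total in each library), so that levels of different genes can be set side by side per length, but they hold no read counts for genes, and the depth behind a value is unknown. At least 1 TPM was reached by 11728 to 15605 genes in the rRNA-depleted mouse libraries and by 13007 to 13971 in the rat ones. Some genes used by every cell of a type are listed at 0 in these tables (the neuronal tubulin Tubb3 is listed at 0 in every library), so a gene at 0 is only said to be listed at 0. The labels do not say whether libraries of a group came from separate animals or cultures, so p-values measure the spread between libraries, which may be technical. In such bulk samples, fewer cells of a type and less RNA per cell cannot be told apart. The defining hepatocyte gene, albumin (Alb), was at 47059, 40781 and 70291 TPM in the 3 liver libraries and at 0 to 68.0 TPM in the 12 others, and 5 of 5 neuron markers tested were higher in brain than in heart, lung and testis.

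All 8 apolipoproteins were far higher in liver than in the mean of brain, heart, lung and testis. Together they summed to 65444 TPM in the 14-week liver library and 62233 and 67518 TPM in the 20-week ones, that is 6.54%, 6.22% and 6.75% of all TPM. In the other tissues the sum was 202 to 2760 TPM, of which Apoe gave most except in testis. The limma test on log2(TPM + 1) with Benjamini-Hochberg adjustment over 18966 genes called 8 of 8 higher in liver, against 10.9% of all genes tested. Of these, Apoa4 passed the filter of 1 TPM only through the liver libraries, so its direction was fixed by the filter. The median log2 difference of the 8 was 9.57, and that of all genes was -1.02. After the libraries were scaled to a common median the all-gene median was -0.52, the 8 stayed higher, and 29.1% of all calls were higher in place of 13.0%. The differences below are to be read against those medians.

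**Figure D1:**
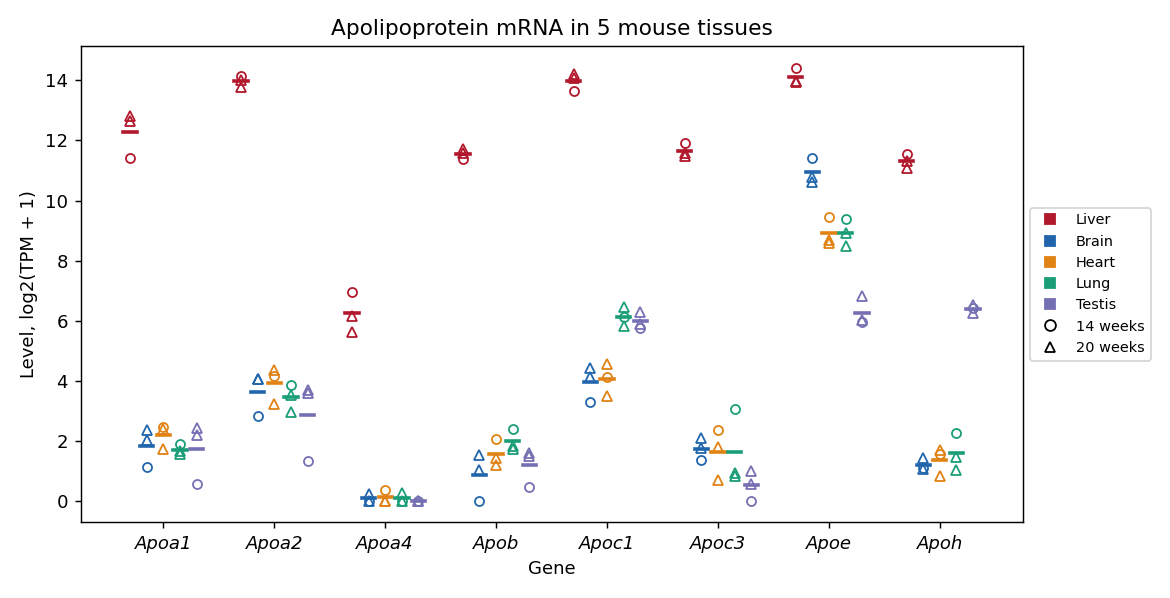
Level of each apolipoprotein, log2(TPM + 1), in liver, brain, heart, lung and testis; each symbol is 1 library (circles 14 weeks, triangles 20 weeks) and bars are the means of 3 libraries. Liver lies above every other tissue for each gene, and outside liver Apoe in brain is highest, followed by Apoe in heart and lung.

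The structural proteins of the plasma particles were present outside liver only at low levels. Apoa1, the main protein of high density lipoprotein, had 2744 TPM in the 14-week liver library and 6400 and 7262 TPM in the 20-week ones, against 0.477 to 4.43 TPM in the 12 libraries of other tissues. Its log2 difference was 10.44 (SE 0.382, adjusted p = 2.51e-11 with limma). Apoa2, the second protein of that particle, averaged 16175 TPM in liver and 8.12 to 14.8 TPM in the other tissues, a log2 difference of 10.51 (SE 0.432, adjusted p = 8.36e-11 with limma). Apob had 2674, 3392 and 3045 TPM in liver and at most 4.28 TPM elsewhere, and it was listed at 0 in the 14-week brain library. Its log2 difference was 10.18 (SE 0.310, adjusted p = 4.38e-12 with limma). The liver and other libraries did not overlap for any of these genes.

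Apoc3, an inhibitor of triglyceride clearance, had 3846 TPM in the 14-week liver library and 2864 and 3053 TPM in the 20-week ones. The 12 other libraries had 0 to 7.36 TPM, and the log2 difference was 10.29 (SE 0.427, adjusted p = 9.07e-11 with limma). Apoa4, an intestinal apolipoprotein in many mammals that mouse liver also makes, was the lowest of the 8 in liver, at 123 TPM at 14 weeks and 70.3 and 48.5 TPM at 20 weeks. It was at 0.278 TPM or less in every other tissue library, and its log2 difference was 6.18 (SE 0.199, adjusted p = 7.23e-12 with limma). That difference rests on the pseudocount, since the other libraries are near 0: it was 9.15 with a pseudocount of 0.1 TPM and 3.99 with 5 TPM. Apoa4 reached 1 TPM, the limit of the filter, only in liver libraries, so it could be called in no other direction.

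Apoc1, Apoe and Apoh differed from the rest in that tissues other than liver also held more than traces. Apoc1, which slows the uptake of lipoproteins by their receptors, had 12812 TPM in the 14-week and 17284 and 19182 TPM in the 20-week liver libraries. It averaged 70.0 ± 15.3 TPM in lung and 62.8 ± 12.8 TPM in testis, but 16.3 ± 5.95 TPM in heart and 15.1 ± 5.94 TPM in brain (SD, n = 3 each). Lung and testis overlapped each other and lay above heart and brain, which also overlapped. Apoh, beta-2 glycoprotein I, a plasma protein that binds phospholipids, had 3030, 2192 and 2527 TPM in liver and 84.6, 91.4 and 74.9 TPM in testis, where it was above Apoc1 in 3 of 3 libraries. The other tissues had at most 3.80 TPM of Apoh.

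Apoe was the most abundant of the 8 in liver at 14 weeks, with 22065 TPM, while at 20 weeks it had 16091 and 15963 TPM and Apoc1 had more. In brain it had 2742 TPM at 14 weeks and 1755 and 1579 TPM at 20 weeks, which was 8.75% to 15.2% of the mean liver level. Heart had 387 to 695 TPM, lung 354 to 669 TPM and testis 61.5 to 111 TPM. Brain lay above heart and lung in every library, heart and lung overlapped, and testis lay below both. Apoe made up 97.4% to 99.3% of the summed level of the 8 genes in the brain libraries, against 23.6% to 33.7% in liver. Across tissues its log2 difference of liver against the others, 5.36 (SE 0.254, adjusted p = 3.40e-10 with limma), was the smallest of the 8.

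Liver was above each tissue taken alone for 8 of 8 genes, with limma, against a background of genes called higher of 11.4% for brain, 11.4% for heart, 8.44% for lung and 22.1% for testis. For Apoa4 the filter allowed no other direction. Under median scaling the share of calls that were higher in liver was 40.0% against brain in place of 16.1%, 41.6% against heart in place of 22.3%, and 36.3% against lung in place of 11.8%. The smallest of these differences was that of Apoe against brain, 3.18 on the log2 scale (SE 0.322, adjusted p = 6.40e-07), followed by Apoh against testis at 4.92 (SE 0.292, adjusted p = 1.45e-09), both with limma. The largest was Apoc3 against testis. An exact two-sided permutation test of 3 liver against 12 other libraries gave p = 0.0022 for each gene, the smallest that 455 splits allow. The 12 libraries are repeats within tissues, not independent units, and liver lay apart for each gene. This p therefore adds no further support. Within ages, the liver differences of the 8 ran from 5.37 to 11.12 at 14 weeks, with 1 library a tissue, and from 5.36 to 10.70 at 20 weeks.

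The difference between liver and other tissues was itself compared between ages, where 2.54% of all genes were called in either direction. Of these calls 19.3% were higher, and 47.6% under median scaling. With limma, 0 of the 8 were called, and 2 of the 8 had an unadjusted p under 0.05. The 2.54% is a share at the adjusted threshold. No share of all genes at the unadjusted threshold is given here, so the 2 cannot be read as an excess. The largest shift was that of Apoa4, whose liver difference was 1.03 lower on the log2 scale at 20 weeks than at 14 weeks (SE 0.260, adjusted p = 0.0853 with limma). With a pseudocount of 5 TPM, Apoa4 was called lower (adjusted p = 0.0342 with limma) and Apoa1 higher (log2 difference 1.10, adjusted p = 0.0231 with limma, against 0.77 and 0.235 with 1 TPM). The single 14-week library per tissue limits this comparison.

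Among the non-liver tissues, brain was set against the mean of heart, lung and testis, where 39.7% of all genes were called higher and 30.7% lower with limma. Of all calls 56.4% were higher, and 40.8% under median scaling, where the median of all genes was -0.24 in place of 0.16. Of the 8 genes 1 was higher and 2 were lower. Apoe was 2.91 higher on the log2 scale (SE 0.263, adjusted p = 2.23e-07). Apoc1 was lower by 1.45 (SE 0.256, adjusted p = 1.73e-04) and Apoh was lower by 1.93 (SE 0.239, adjusted p = 5.90e-06). Apoh was at 74.9 to 91.4 TPM in testis alone of these tissues. Apob was not called (log2 difference -0.72, adjusted p = 0.0595 with limma) but was called under median scaling (-0.85, adjusted p = 0.0168) and without 1 library, the 20-week brain replicate 2 (-1.06, adjusted p = 0.0156) or the 14-week testis library (-0.84, adjusted p = 0.0201).

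The low levels of Apoa1, Apoa2, Apob and Apoc3 outside liver were set beside hepatocyte markers in the same libraries. As a percent of the liver mean, 14 hepatocyte markers had a median between 0.00247% and 0.138% in the 12 libraries of other tissues, and those 4 genes lay between 0% and 0.226%. Library by library the relation differed between tissues. In brain Apoa1, Apoa2 and Apoc3 lay above the marker median in 3 of 3 libraries, and Apob in 1. In lung Apoa1 and Apoa2 did so in 0 of 3, Apoc3 in 1 and Apob in 2. In heart and testis each of the 4 did so in 0 to 2 of 3 libraries. Alb was listed at 0 in the 14-week brain library but had 16.3 and 27.4 TPM in the 20-week ones, and Apoa1 in the same libraries had 1.17, 3.07 and 4.12 TPM. In testis the 14-week library had 0.108 TPM of Alb and 0.477 TPM of Apoa1, against 14.7 and 21.3 TPM of Alb and 4.31 and 3.57 TPM of Apoa1 at 20 weeks. The part of hepatocyte RNA in these traces was not tested. Apoe in brain and heart, and Apoc1, Apoe and Apoh in testis, lay above the highest of the 14 hepatocyte markers in all 3 libraries of the tissue. In lung none of the 8 did so, because haptoglobin, one of the markers, is itself high there at 14.8% to 17.4% of its liver level.

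**Figure D2:**
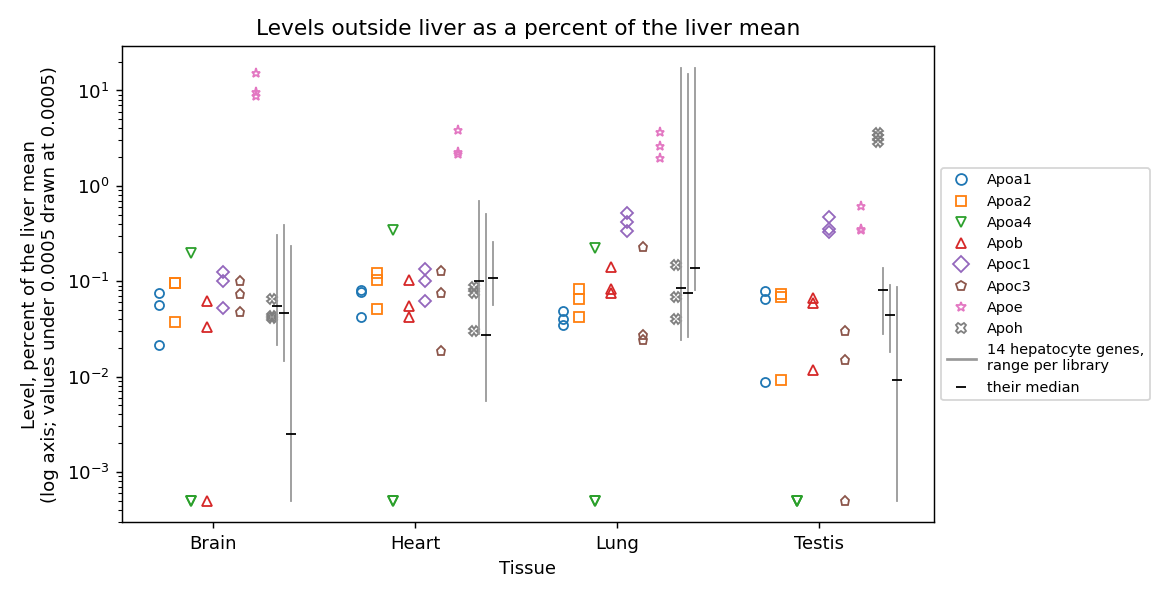
Level in each library of brain, heart, lung and testis as a percent of the mean of the 3 liver libraries, on a log axis; symbols are the 8 apolipoproteins, grey lines the range and black ticks the median of 14 hepatocyte markers in each library; values at or near 0 are drawn at the bottom of the axis. Apoe in brain (8.75% to 15.2%) and Apoh in testis (2.90% to 3.54%) stand above the hepatocyte range.

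The genes around lipoproteins were counted by list in the liver contrast, where 10.9% of all genes were called higher and 72.6% lower. Of 14 other apolipoproteins tested 11 were higher in liver and 3 lower, with a median log2 difference of 8.08. Apoa5, a neighbour of Apoa4 that promotes triglyceride clearance, had 496 TPM in liver on average and 0.197 TPM elsewhere, a log2 difference of 8.69 (SE 0.173, adjusted p = 1.46e-13 with limma). Apod, a lipocalin unrelated in sequence to the other apolipoproteins, went the other way, with 0.111 TPM in liver against 383 ± 53.1 TPM in brain (SD, n = 3). Its log2 difference of liver from the mean of brain, heart, lung and testis was -4.11. Clu (clusterin), another brain apolipoprotein, was higher in liver than in the mean of those tissues by 1.52 (adjusted p = 8.21e-05 with limma). It had 1230 ± 249 TPM in liver and 686 ± 30.9 TPM in brain (SD, n = 3 each).

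Assembly and transcription genes were mostly higher in liver too. Of 13 assembly and clearance regulators 11 were higher in liver and 2 lower, and of 16 hepatic and lipid transcription factors 14 were higher and 1 lower. Mttp, which loads lipid onto Apob, had 186 TPM in liver and 6.85 TPM elsewhere (log2 difference 4.72). Hnf4a, a nuclear receptor that drives hepatocyte genes, had 252 TPM in liver and 0.238 TPM elsewhere (log2 difference 7.69). Of 13 receptors 5 were higher and 8 lower in liver, a share of lower calls no larger than that of all genes. Lrp1, a large receptor that takes up Apoe-bearing particles, was higher by 1.82 on the log2 scale, whereas Vldlr, Lrp8 and Sorl1 were lower, by 3.39, 2.65 and 3.97. Of 12 genes of lipid efflux and particle remodelling 5 were higher and 5 lower. Lcat, which esterifies cholesterol on high density lipoprotein, was 6.21 higher in liver, and Lpl, lipoprotein lipase, was 2.49 lower, with 2265 ± 290 TPM in heart (SD, n = 3). Pltp, which transfers phospholipids, was called lower (-0.53, adjusted p = 0.0447 with limma), but its direction turned under median scaling (0.33, adjusted p = 0.189).

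**Figure D3:**
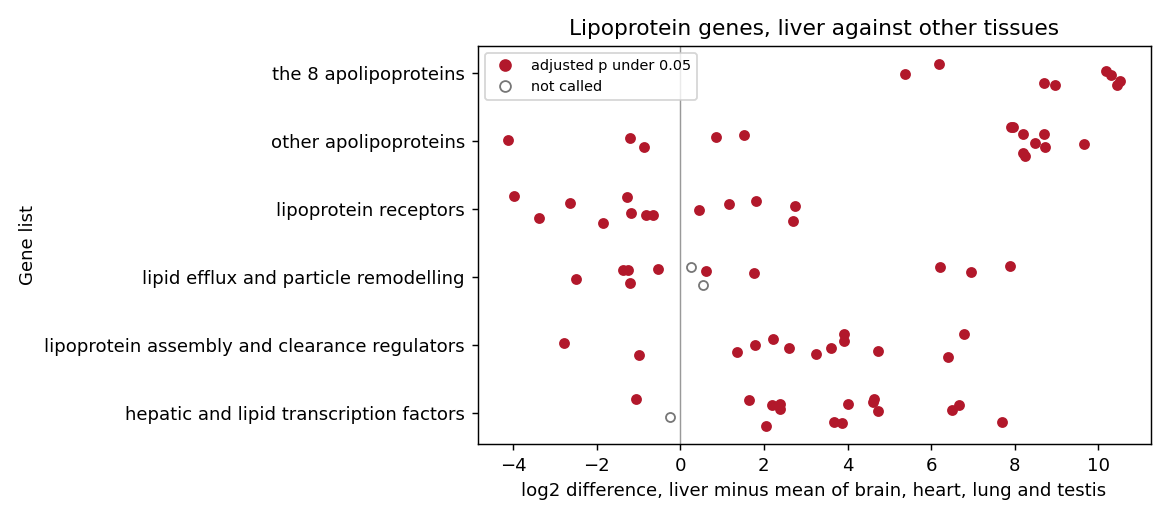
Log2 difference of liver minus the mean of brain, heart, lung and testis for each tested gene of 6 lists, 1 point a gene, filled where the adjusted p was under 0.05. All 8 apolipoproteins lie above 5, while lipoprotein receptors lie on both sides of 0.

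By likeness of profile over the 15 tissue libraries, Apoe was nearest to Vtn (Pearson r = 0.994), Decr2, Pcx, Hrsp12 and Tnfaip8l1, among 14767 genes that reached 5 TPM. Apoa4 was nearest to Cyp3a59 (r = 0.997), Cyp2c68, Akr1c20, Amdhd1 and Uroc1. These are descriptions over libraries that share a liver step.

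In hippocampus Apoe was higher at each later stage up to P10. It had 402 and 408 TPM at E18, 1148 and 1391 TPM at P1, 3199 and 3532 TPM at P10, and 4251 and 3489 TPM at P30. The stages were apart up to P10, and P10 and P30 overlapped. P30 exceeded E18 by 3.25 on the log2 scale (SE 0.157, adjusted p = 4.10e-07), P1 exceeded E18 by 1.64 (adjusted p = 0.00407) and P10 exceeded P1 by 1.41 (adjusted p = 2.56e-04), all with limma. P30 against P10 was not called (0.20, adjusted p = 0.374 with limma). In rank, Apoe was the 337th and 327th most abundant gene of the E18 libraries and the 3rd and 9th of the P30 libraries.

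Only 4 of the 8 passed the filter of 1 TPM in at least 2 of the 8 libraries, so counts over them are a description. Of the others, Apoa4 was listed at 0 in all 8 libraries, Apob reached at most 0.0842 TPM, Apoc3 1.34 TPM and Apoa1 1.63 TPM. From E18 to P30, 3 of these 4 were called higher with limma (Apoe, Apoc1 and Apoa2) and Apoh was not (log2 difference -0.31, adjusted p = 0.466), against 29.5% of all genes tested. Between P1 and E18 1 of 4 was called higher, against 1.2% of genes. Between P10 and P1 2 of 4 were called higher, against 17.2%. Between P30 and P10 0 of 4 were called with limma, 0 of 4 had an unadjusted p under 0.05, and 29.5% of genes were called in either direction.

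Apoc1 had 1.06 and 4.30 TPM at E18, 6.01 and 6.51 TPM at P1, 10.7 and 15.6 TPM at P10, and 10.0 and 11.2 TPM at P30. P30 exceeded E18 by 1.81 (SE 0.376, adjusted p = 0.00270 with limma), and these stages did not overlap, while P10 and P30 did. P10 against P1 was not called (0.94, adjusted p = 0.0784 with limma), but was called with a pseudocount of 5 TPM (adjusted p = 0.0294), with only those 2 stages (adjusted p = 0.0247), and without E18 replicate 1 (adjusted p = 0.0121) or 2 (adjusted p = 0.0126). Apoa2 had 1.78 and 0.688 TPM at E18, 1.76 and 0.880 TPM at P1, 5.28 and 4.37 TPM at P10, and 2.91 and 3.05 TPM at P30. Its P10 excess over P1 was 1.35 (SE 0.279, adjusted p = 0.00576 with limma). Its P30 excess over E18 was 0.88 (SE 0.279, adjusted p = 0.0231 with limma), which was lost with no filter (adjusted p = 0.0519) and without P30 replicate 1 (adjusted p = 0.0783), P30 replicate 2 (adjusted p = 0.0944) or E18 replicate 2 (0.51, adjusted p = 0.179).

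**Figure D4:**
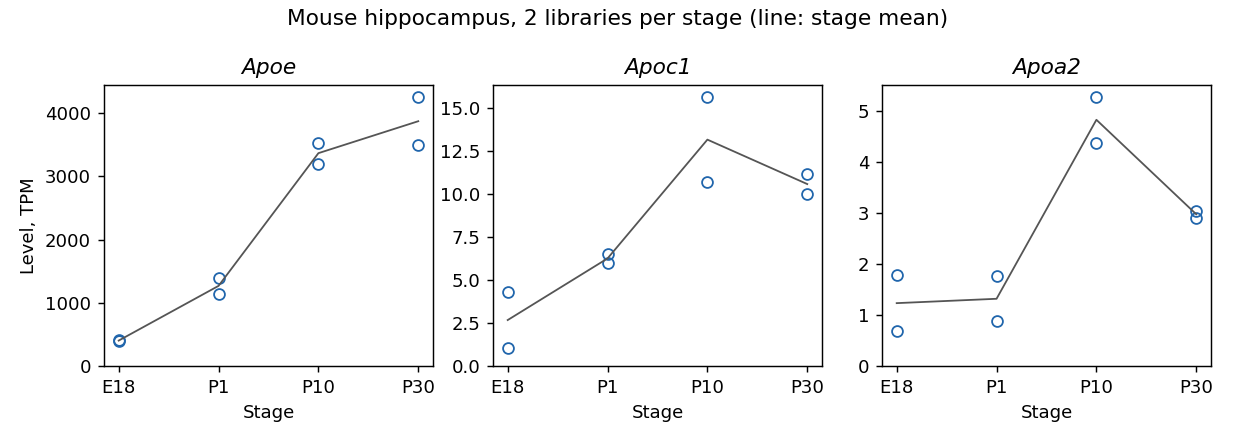
Level in TPM of Apoe, Apoc1 and Apoa2 in mouse hippocampus at E18, P1, P10 and P30; circles are the 2 libraries of each stage and the line joins stage means. Apoe lies at 402 and 408 TPM at E18 and at 3199 to 4251 TPM at P10 and P30, and Apoa2 is highest at P10.

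Markers of most neural cell types were higher at P30, among them those of astrocytes and microglia, which are known to make Apoe in brain. The 10 astrocyte markers summed to 602 and 678 TPM at E18, 857 to 1064 TPM at P1, 2214 to 2257 TPM at P10 and 3189 to 3551 TPM at P30, and 10 of 10 were higher at P30 than at E18. The 11 microglia and macrophage markers summed to 98.6 to 125 TPM at E18 and 383 to 429 TPM at P30, with 10 of 11 higher at P30. Of the neuron markers 5 of 5 tested were higher at P30 and of the oligodendrocyte markers 4 of 4, with median log2 differences of 3.18 and 7.69, against 2.63 for astrocyte and 1.97 for microglia markers, while 5 of 6 radial glia and progenitor markers were lower. The choroid plexus sum was 21.8 TPM in P10 replicate 1 and 3533 TPM in P10 replicate 2, while Apoe was 3199 and 3532 TPM in the same libraries. Without P10 replicate 2 the P10 excess of Apoe over P1 was 1.34 (adjusted p = 0.00382 with limma). The part of any of these cells in the Apoe result was not tested.

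Other lipid genes were counted by list at P30 against E18, where 29.5% of all genes were called higher and 26.8% lower. Of 5 other apolipoproteins tested 3 were higher at P30 and 2 lower, with Clu 3.42 higher (988 TPM at P30 against 91.8 TPM at E18, adjusted p = 1.47e-07 with limma) and Apod 1.46 higher. Of 11 receptors 4 were higher and 2 lower, with Sorl1, a sorting receptor, 3.71 higher, Lrp1 1.11 higher and Lrp8 lower by 0.99. Of 11 efflux and remodelling genes 6 were higher and 2 lower, with Lcat 3.19 higher, Abcg1, a cholesterol exporter, 2.04 higher, and Lpl lower by 0.88. Of 10 assembly and clearance regulators 3 were higher and 2 lower, and of 8 transcription factors 1 was higher and 0 were lower. The shares called higher among receptors and assembly genes were near that of all genes. The genes nearest to Apoe in profile over the 8 hippocampal libraries were Pde1a (r = 0.997), Htr5b, Prps1, Adhfe1 and Slc25a18, among 11622 genes.

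Single libraries were compared by fraction and layer, with no test. Apoe had 7297 TPM in synaptosomes, a preparation of pinched-off synaptic endings, against 2446 TPM in homogenate. It had 9092 TPM in mouse CA1 neuropil, the layer of dendrites and axons, against 3055 TPM in somata, the cell body layer. In rat it had 9226 TPM in neuropil against 4501 TPM in somata, in a table normalised separately from the mouse one. Apoc1 had 15.4 TPM in synaptosomes against 5.35 TPM in homogenate, 16.1 TPM in mouse neuropil against 5.49 TPM in somata, and 366 TPM in rat neuropil against 181 TPM in somata. Both genes were thus higher in synaptosomes and in neuropil in each pair.

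For these pairs, ratios were taken after adding 1 TPM to both values. Only genes that reached 1 TPM in a pair were counted. In synaptosomes against homogenate, 3 of 4 apolipoproteins were at least 2-fold higher (Apoe, Apoc1 and Apoa2), against 5.83% of all genes. With 5 TPM added, only Apoe of these passed. The fourth, Apoc3, had 2.01 TPM in synaptosomes against 0.565 TPM in homogenate, a log2 ratio of 0.94 that was 1.67 with 0.1 TPM added. In mouse neuropil against somata it was 3 of 5 (Apoe, Apoc1 and Apoc3, the last at 1.02 TPM in neuropil and listed at 0 in somata), against 8.22% of genes, while Apoa2 had 0.644 TPM in neuropil against 2.56 TPM in somata (log2 ratio -1.12) and Apoh 0.167 TPM in neuropil against 1.25 TPM in somata (log2 ratio -0.95). With 1 TPM added, any gene that reached 1 TPM in neuropil and was listed at 0 in somata passes. The pass of Apoc3 was therefore fixed in advance and adds nothing to that count. In rat neuropil against somata the count was 2 of 2, against 8.35% of genes. The log2 ratios were 1.04 for Apoe and 1.01 for Apoc1. Under median scaling they were 0.97 and 0.94, and 0 of 2 passed. With 5 TPM added, Apoc1 did not pass. Astrocyte marker sums were 14815 TPM in synaptosomes against 3129 TPM in homogenate, 7423 TPM in mouse neuropil against 3057 TPM in somata, and 11490 TPM in rat neuropil against 5739 TPM in somata. Microglia marker sums were 1268 TPM in synaptosomes against 354 TPM in homogenate and 952 TPM in mouse neuropil against 403 TPM in somata, and 913 TPM in rat neuropil against 417 TPM in somata. Of the 10 astrocyte genes 8, 9 and 6 were at least 2-fold higher in these 3 pairs. Markers of other cells were also higher in neuropil. Of endothelial and mural markers 4 of 4 were at least 2-fold higher in mouse and 4 of 4 in rat neuropil, but 0 of 4 in synaptosomes. Of radial glia and progenitor markers it was 3 of 5, 4 of 5 and 1 of 6. Of neuron markers it was 0 of 5 in neuropil of each species, and of oligodendrocyte markers 0 of 4. The part of any of these cells in the ratios of the apolipoproteins was not tested.

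In cultures Apoe was among the most abundant genes, in 2nd place in each of the 4 libraries. It had 10354 and 8085 TPM in bicuculline cultures against 11025 and 9500 TPM in control cultures, and the groups overlapped. The log2 difference was -0.16 (SE 0.184, adjusted p = 0.698 with limma). Apoc1 had 25.3 and 14.0 TPM in bicuculline cultures against 31.1 and 13.5 TPM in control cultures (log2 difference -0.12, SE 0.452, adjusted p = 0.925 with limma). Neither of these 2, the only members to pass the filter in cultures, was called with limma, and neither had an unadjusted p under 0.05, against 2.57% of 13341 genes called in either direction. The log2 difference of Apoe ran from -0.34 to 0.02 when 1 library was left out.

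Cultures and rat CA1 differed more in Apoc1 than in Apoe. Apoe had 8085 to 11025 TPM in the 4 culture libraries and 9226 and 4501 TPM in CA1 neuropil and somata, while Apoc1 had 13.5 to 31.1 TPM in cultures and 366 and 181 TPM in CA1. Microglia and macrophage markers summed to 1.22 to 67.4 TPM in cultures and to 913 and 417 TPM in CA1 neuropil and somata, and astrocyte markers to 11049 to 14431 TPM in cultures. Within cultures, the microglia sums were 2.69 and 1.22 TPM in the replicate 1 bicuculline and control libraries and 64.3 and 67.4 TPM in the replicate 2 ones, whereas Apoc1 was higher in replicate 1. The part of these cells in the Apoc1 level was not tested.

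In the poly(A)-selected brain library Apoe had 4632 TPM against 2742 TPM in the rRNA-depleted library, and Apoc1 13.2 TPM against 8.67 TPM. None of the 6 members that reached 1 TPM was 2-fold higher in the poly(A) library, where 9.07% of all genes were, although Apoe reached a log2 ratio of 1.02 under median scaling.

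Over the rRNA-depleted mouse groups, the mean level of Apoe ran from liver (18040 TPM) over CA1 neuropil (9092), synaptosomes (7297), P30 (3870) and P10 hippocampus (3366), somata (3055), homogenate (2446), brain (2025) and P1 (1269) to lung (500.0), heart (496), E18 (405) and testis (78.9). Neighbours whose libraries overlapped were P30 and P10, homogenate and brain, lung and heart, and heart and E18.

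**Figure D5:**
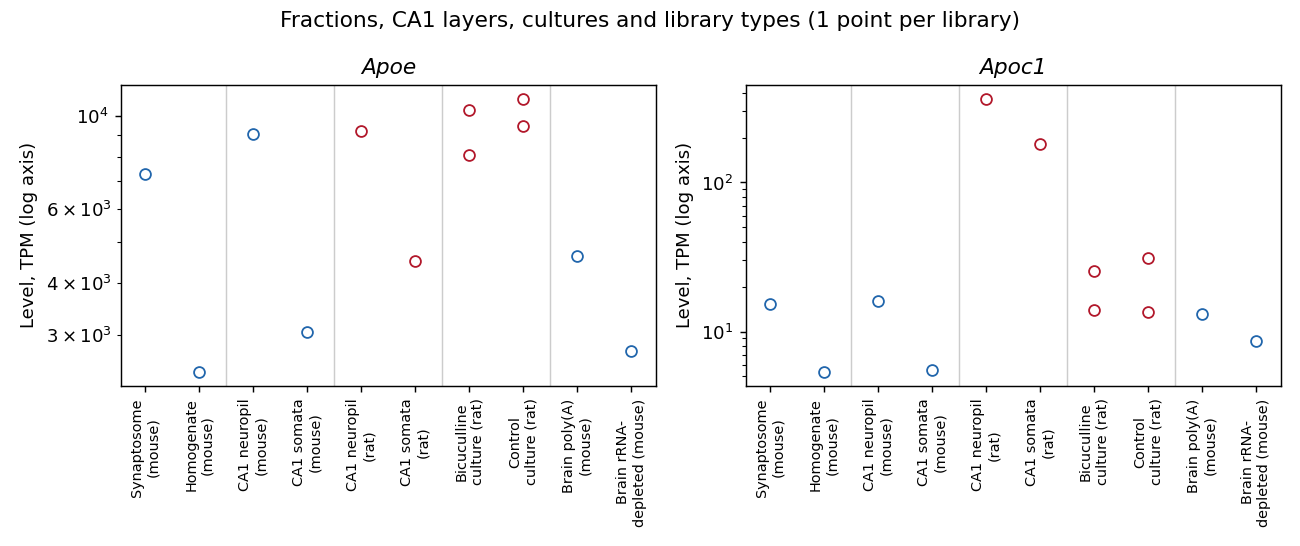
Level of Apoe and Apoc1 in TPM, on a log axis, in synaptosomes, homogenate, CA1 neuropil and somata, cultures and the 2 brain library types; 1 point is 1 library, blue for mouse and red for rat, whose tables were normalised separately. Both genes are higher in synaptosomes than homogenate and in neuropil than somata in each species.

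Some genes of the same pathways are hosts in the deposited circRNA lists: 11 mouse circRNAs came from Sorl1, 5 from Lrp8 and 5 from Abca1. Other apolipoproteins were hosts of 1 mouse circRNA and, from 2 genes, of 5 rat circRNAs. The share of all genes that are hosts was not counted, so the absence of these 8 cannot be set against it. In the liver libraries 912, 816 and 1260 circRNAs were above 0, where the rRNA-depleted mouse libraries ran up to 10713. The circRNA values were treated as RPM. The Sorl1 circRNAs summed to 13.0 RPM at P30, 2.49 RPM at P10, 1.92 RPM at P1 and 4.17 RPM at E18 on average. The Lrp8 ones averaged 7.40 RPM at P30 and 1.17 RPM at E18 (1.09 and 1.25 RPM). The Abca1 ones averaged 1.16 RPM at P30 (0 and 2.32 RPM) and 0.856 RPM at E18 (0.624 and 1.09 RPM). The smallest value above 0 was 0.545 to 0.624 RPM in the E18 and P30 libraries, so the low sums are a few such steps. All circRNAs together summed to 17782 and 18414 RPM at P30 and to 11493 and 10826 RPM at E18, and no test was made. A circRNA table lists only called circRNAs, so no limit on apolipoprotein circRNAs can be given.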

How the data were processed

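Per the labels' protocols, total RNA was isolated with TRIZOL. Of tools, Cufflinks 2.2.1, TopHat2 2.0.6 and CASAVA 1.8.2 appear in the submitters' processing notes, beside the builds mm9 and rn5. The authors deposited TPM per gene. The circRNA values are also named TPM as deposited, but were treated here as RPM, because nearly all are whole multiples of a single step in each library. Their caller and denominator are not given in the sources used here. Mouse and rat tables were normalised separately. Columns were assigned by the sample numbers in the labels; 0 columns were left over. A long-read P30 sample has no column and is not analysed here. Tests used limma 3.58.1 in R 4.3.3 on log2(TPM + 1), two-sided, eBayes with trend, Benjamini-Hochberg over all genes tested, threshold 0.05, on genes at 1 TPM or more in at least 3 (tissues) or 2 (hippocampus, cultures) libraries; the fits were also tested on simulated data. The poly(A) library stayed out of the tissue fit. Single libraries were compared with no test, by a 2-fold limit. Members and lists were chosen with earlier results of these data known. Non-members were named by rule: up to 4 genes a list with the smallest adjusted p in the liver contrast and up to 3 in P30 against E18, plus Apod, Clu, Lrp1, Vldlr, Lrp8, Abca1, Lcat, Pltp, Mttp and Hnf4a; 1 other gene of the rule is not reported here. Alternatives were other pseudocounts (0.1 and 5 TPM), no filter, no trend, median scaling, a replicate block, an age term, 20-week libraries alone and leaving out each library.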

Additional observations from a re-analysis of the deposited data

Results flagged for a closer look

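Among the pathway genes named, the liver difference between the ages was called by limma for 2, both by a test of the difference itself. Of all genes tested, 2.54% were called in either direction, and these 2 are shown because they were called. Each change also holds any shift in the other tissues, whose levels are not given here. Angptl4, an inhibitor of lipoprotein lipase, had 86.7 and 83.8 TPM in 20-week liver and 9.37 TPM in 14-week liver, and its difference from the other tissues changed by 3.82 on the log2 scale at 20 weeks (adjusted p = 0.00428). Vldlr, a lipoprotein receptor, had 0.590 and 1.76 TPM in 20-week liver and 6.12 TPM in 14-week liver, and its difference from the other tissues changed by -1.87 on the log2 scale at 20 weeks (adjusted p = 0.0379). With 1 library a tissue at 14 weeks, age and library cannot be told apart. The Vldlr call was lost with a pseudocount of 0.1 TPM (adjusted p = 0.0563), with median scaling (0.0744) and without each of 8 single 20-week non-liver libraries (0.0580 to 0.0808), while Angptl4 kept its call in the alternatives run (adjusted p up to 0.0195).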

How the results depend on the processing

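The liver direction of the 8 genes held under every alternative run. Under the 20-week libraries alone and without 1 liver library, Apoa4 reached 1 TPM in only 2 libraries, so that 7 of 7 tested genes were called. The count of all genes called higher in liver (2061) was 988 with liver against 12 libraries as 1 group (3150 lower, against 13768) and 4047 with median scaling, and with that scaling 4465, 3547 and 3766 against brain, heart and lung. In 20-week libraries alone 2 members were higher in brain, Apoe and Apoc3 (0.96, adjusted p = 0.0105 with limma). For the age comparison 1 member was called higher and 1 lower with a pseudocount of 5 TPM, and all calls (481) were 861 then, 309 with median scaling, 771 with no filter and 201 to 599 without 1 library. P1 against E18 (186 higher) gave 17 with no filter, 29 with only 2 stages and 19 to 114 without 1 library. P10 against P1 gave 1589 to 2572 higher without 1 library (2658 with all), and P30 against P10 2219 to 5126 calls (4561 with all); with no filter Apoc3 became the 1 member called higher there (0.87, adjusted p = 0.0316 with limma). Bicuculline gave 343 calls, 78 with no filter and 33 to 598 without 1 library. Apoa2 at P1 against E18 ran from -0.29 to 0.43 without 1 library, and in cultures Apoe from -0.34 to 0.0168 and Apoc1 from -0.69 to 0.45. Pltp turned to 0.33 in liver with median scaling. Of the members, 1 was 2-fold higher in synaptosomes and 1 in rat neuropil with a pseudocount of 5 TPM. With median scaling it was 0 in rat neuropil and 1 in poly(A) brain. No share of all genes is given here for these settings, nor for brain in 20-week libraries alone. Those member counts are therefore a description. The cause of these shifts was not tested.

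The main fits did not use replicate numbers, and whether the numbers pair the libraries was not settled. Deviations from group means correlated from 0.0538 to 0.375 in hippocampus, where 4 of 6 pairs were over 0.1. In tissues they correlated from 0.0687 to 0.521, with 28 of 30 pairs over 0.1. The 1 pair of culture numbers correlated by 0.55. As a hint from the data, 8 of 8 hippocampal, 14 of 15 tissue and 4 of 4 culture libraries correlated best with their own number. The hippocampal and culture counts are not independent support for pairing. With 2 libraries a group, deviations from the mean mirror each other, so the hippocampal and culture counts repeat the correlations above. In tissues the 14-week libraries could be matched by age alone. The 20-week libraries have 2 numbers at the same age, so their matches were not fixed by age. With the replicate number as a block, P1 against E18 gave 420 genes higher, bicuculline gave 3298 calls with Apoe (-0.16, adjusted p = 0.208 with limma, lower with bicuculline in both numbers) and Apoc1 (-0.12, adjusted p = 0.644) still not called, and Apoc1 was called at P10 against P1 (0.94, adjusted p = 0.0208 with limma).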
